A study of Mus musculus with 12 samples.

Results

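H4K12ac, histone H4 acetylated at lysine 12, was examined at 9 genes that encode bromodomain proteins: *Brd2*, *Brd3*, *Brd7*, *Brd9*, *Atad2*, *Atad2b*, *Bptf*, *Cecr2* and *Baz2b*. The genes were chosen by name, as 9 of the 55413 genes annotated on GRCm38 (mm10), and all 9 were found. For each gene, the peaks of 10 H4K12ac lists were collected within 2 kb of the transcription start site (TSS) and along the gene body.

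The study asked where neurons lose H4K12ac when TIP60 (KAT5), a lysine acetyltransferase that acts on histone H4, is removed from the adult mouse brain. H4K12ac ChIP-Seq was performed on neuronal nuclei of the whole hippocampus, sorted by FACS, from 5 *Tip60* cKO and 5 control mice labelled as 3 months old, male and C57BL/6J (the methods of the study name either sex and C57BL/6N). The *Tip60* cKO mice carried floxed *Tip60* alleles and the CaMKCreERT2 driver, an inducible Cre under a promoter that is active in excitatory forebrain neurons, and the control mice carried the floxed alleles without the driver. Both genotypes received tamoxifen and were taken at day 10 after it, and the input of the mice was pooled per genotype. The sort took all neurons, so nuclei outside the reach of the driver were part of every *Tip60* cKO library.

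A bromodomain is a small protein fold whose pocket binds acetylated lysine, above all on histone tails. Proteins that carry it are called readers: they do not place or remove the acetyl group, but bring transcription factors, chromatin remodelers or further enzymes to acetylated chromatin. The BET proteins, of which BRD2 and BRD3 are members, bind acetylated histone H4, and the bromodomain of ATAD2 also recognises acetylated H4. The 9 genes are thus genes for readers of histone acetylation whose own chromatin was measured here for 1 such mark.

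Each library held between 22864189 and 37923809 filtered tags and between 64245 and 136409 peaks, and the lowest values of both were those of *Tip60* cKO 5. Libraries 1 to 3 of each genotype came from sequencing lane 7 and libraries 4 and 5 from lane 8, as the file names show. Of 8 neuronal marker genes 7 had a TSS peak in all 10 lists, while no marker of oligodendrocytes had one in any list and no marker of astrocytes, microglia or endothelial cells had one in all lists. The neuronal marker *Gad1* had a TSS peak in no list. The astrocyte marker *Gfap* had a TSS peak in 9 lists and the endothelial marker *Cdh5* in 8. In bulk nuclei, a lower level in every nucleus and a loss in some of them cannot be told apart.

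At *Kat5*, the targeted gene itself, the TSS carried a peak in all 10 lists. Its TSS rank score, the percentile of the strongest peak near the TSS among all genes of a library, averaged 94.8 ± 5.07 over the *Tip60* cKO mice and 97.6 ± 2.08 over the controls (SD, n = 5; p = 0.294 by an exact two-sided permutation test). Its fold enrichment was 7.81, 7.94, 7.01, 7.83 and 4.95 in *Tip60* cKO 1 to 5 and 7.77, 9.05, 9.45, 9.87 and 9.03 in control 1 to 5, with the lowest value in *Tip60* cKO 5 and an overlap at control 1 (7.11 ± 1.26 against 9.03 ± 0.79, SD, n = 5; exact permutation p = 0.0317). The pileup at the summit was 30.8 ± 8.01 against 41.8 ± 3.83 (SD, n = 5; exact permutation p = 0.0159), and the log2 fold enrichment relative to the library median was 0.36 ± 0.24 against 0.54 ± 0.16 (exact permutation p = 0.214, n = 5). The methods of the study place the loxP sites on both sides of the start codon, and a recombined allele lacks the stretch between them. Whether the summits lie within that stretch was not tested. The share of recombined nuclei among those sorted cannot be read from these lists.

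Promoter sequences from RefSeq (GRCm38.p6; 250 bases before to 50 bases after the start) matched 7 of the 9 genes. Those of *Atad2* and *Cecr2* were not among them. The sequences below are shown because they hold the starts on which the results turn: the promoter at the 5′ end of *Brd2*, the gene with the highest rank score, the *Brd3* promoter inside the gene, the *Brd9* promoter shared with a neighbour, the *Atad2b* promoter, whose coverage did not overlap between genotypes, and the *Baz2b* promoter inside the gene. They read 5′ to 3′ on the strand of the gene, and capitals mark matches, on either strand, to the GC box (GGGCGG), the CCAAT box (CCAAT), the ETS motif (CCGGAAG), the core of the NRF1 motif (GCNTGCGC), the core of the YY1 motif (AAGATGGC), the cAMP response element (TGACGTCA) or the E2F motif (TTTNGCGC).
*Brd2*, chr17:34122558-34122857, minus strand: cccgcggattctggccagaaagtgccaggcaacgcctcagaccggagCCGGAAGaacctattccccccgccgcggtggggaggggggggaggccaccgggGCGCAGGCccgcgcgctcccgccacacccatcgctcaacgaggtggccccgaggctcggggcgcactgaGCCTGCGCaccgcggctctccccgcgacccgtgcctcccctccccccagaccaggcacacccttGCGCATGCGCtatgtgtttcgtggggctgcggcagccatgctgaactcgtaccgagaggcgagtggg
*Brd3*, chr2:27475349-27475648, minus strand: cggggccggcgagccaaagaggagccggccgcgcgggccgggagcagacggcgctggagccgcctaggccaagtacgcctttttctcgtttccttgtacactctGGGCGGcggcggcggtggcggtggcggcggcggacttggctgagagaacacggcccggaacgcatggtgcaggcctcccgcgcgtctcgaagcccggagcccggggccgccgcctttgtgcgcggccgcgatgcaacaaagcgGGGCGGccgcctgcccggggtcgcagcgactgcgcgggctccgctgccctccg
*Brd9*, chr13:73937561-73937860, plus strand: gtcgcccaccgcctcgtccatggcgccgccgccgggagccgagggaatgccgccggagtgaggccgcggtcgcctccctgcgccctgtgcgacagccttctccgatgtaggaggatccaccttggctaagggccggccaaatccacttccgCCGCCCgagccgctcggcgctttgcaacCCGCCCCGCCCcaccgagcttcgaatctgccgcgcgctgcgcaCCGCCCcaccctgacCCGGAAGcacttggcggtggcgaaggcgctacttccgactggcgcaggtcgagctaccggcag
*Atad2b*, chr12:4917103-4917402, plus strand: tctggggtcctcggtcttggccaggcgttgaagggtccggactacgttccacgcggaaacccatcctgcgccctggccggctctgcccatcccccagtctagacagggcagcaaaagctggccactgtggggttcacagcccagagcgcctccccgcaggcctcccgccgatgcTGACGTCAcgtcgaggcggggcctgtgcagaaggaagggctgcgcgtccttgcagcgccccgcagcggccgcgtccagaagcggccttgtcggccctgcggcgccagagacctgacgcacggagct
*Baz2b*, chr2:60125691-60125990, minus strand: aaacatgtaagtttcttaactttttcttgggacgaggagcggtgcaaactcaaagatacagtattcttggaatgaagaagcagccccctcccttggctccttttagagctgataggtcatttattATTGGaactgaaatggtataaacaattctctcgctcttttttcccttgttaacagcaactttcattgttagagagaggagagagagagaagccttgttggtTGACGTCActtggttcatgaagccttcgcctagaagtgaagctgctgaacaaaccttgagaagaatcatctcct

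The *Brd3* promoter held 46 CpG dinucleotides in 300 bases, more than 98.3% of the 32817 mouse promoters of this length, and 2 GC boxes, a motif present in 35.6% of them. The *Brd9* promoter held 40 CpGs, 4 GC box matches, of which a neighbouring pair shares 1 base, and 1 ETS match (8.86% of promoters). The *Brd2* promoter held 32 CpGs, 1 ETS match and 4 NRF1 core matches, which overlap in part (a match is found in 9.95% of promoters). The *Atad2b* promoter held 29 CpGs and 1 cAMP response element, a motif present in 1.79% of promoters. The *Baz2b* promoter also held 1 such element, but it had 5 CpGs and 41.7% G and C, against medians of 7 and 52.7% over all promoters, and was the only CpG-poor sequence among the 5. Not printed are a pair of further *Brd2* promoters inside the gene, at 34119851-34120150 (24 CpGs, 1 GC box and 1 YY1 core match) and 34121698-34121997 (14 CpGs, 1 GC box), a *Brd9* promoter that overlaps the printed one nearly completely, and the promoters of *Brd7* (31 CpGs, 2 GC boxes) and *Bptf* (39 CpGs, 2 GC boxes and 1 YY1 core match, which 2.74% of promoters hold).

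Acetylation was found at a start of 8 of the 9 genes in nearly every mouse. This count includes the *Brd3* start inside the gene, chosen after the peaks were seen. No share of all genes was determined for it. At the annotated 5′ end, 6 genes (*Brd2*, *Brd7*, *Atad2b*, *Bptf*, *Cecr2* and *Baz2b*) had a peak in all 10 lists and *Brd9* in 9, which gives 66.7% with a peak in all lists against 44.0% of all protein-coding genes. *Brd3* and *Atad2* had no peak there in any list. In control mice the TSS rank score ranged from 97.4 to 99.97 at *Brd2*, from 94.0 to 99.1 at *Atad2b*, from 92.9 to 99.6 at *Bptf*, from 84.6 to 99.6 at *Brd7*, from 83.1 to 94.2 at *Baz2b*, from 81.2 to 94.7 at *Cecr2* and from 70.2 to 80.2 at *Brd9*. Neighbours in this order overlapped, except that every control value of *Brd9* lay below every control value of *Cecr2*.

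No gene of the 9 differed between genotypes by the TSS rank score in limma, with Benjamini-Hochberg adjustment over the 21672 genes tested and a threshold of 0.05. Of all genes, 0.235% passed. The 7 genes with a TSS peak were tested, none had an unadjusted p below 0.05 (11.8% of all genes did), and none had genotypes that did not overlap (3.55% of all genes). The mean was lower in *Tip60* cKO at 4 of the 7, as at 55.6% of all genes. The median difference over the 7 was -2.64 against -0.69 over all genes tested. A rank within a library compares genes with each other, so a loss shared by all genes would not appear in it. The same holds for fold enrichment relative to the library median.

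**Figure D1:**
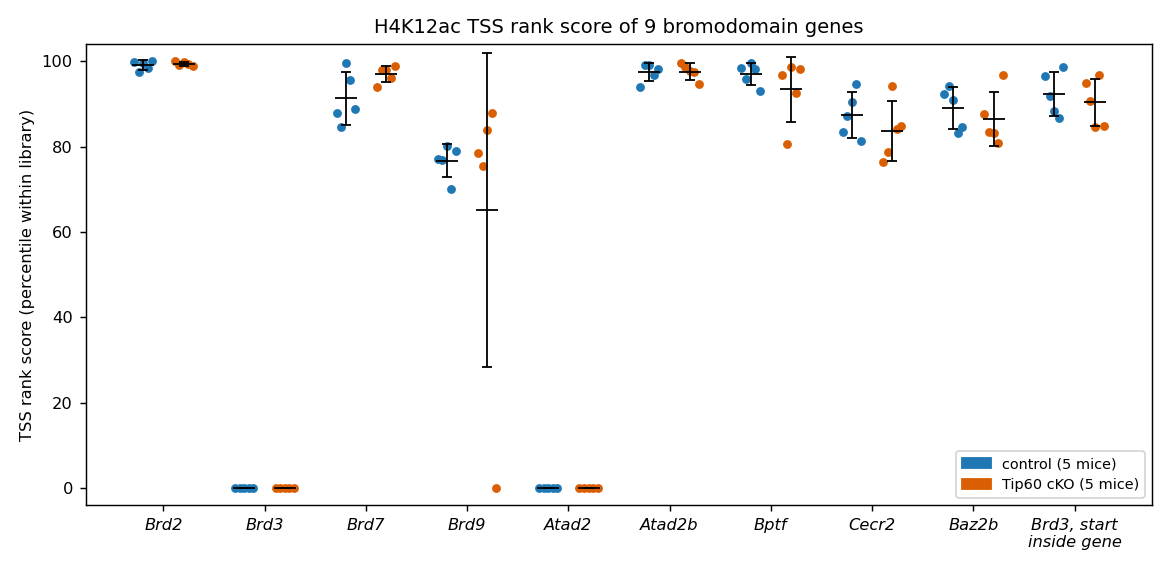
TSS rank score (y axis, percentile of the strongest H4K12ac peak within 2 kb of the TSS among all genes of the library; 0 without a peak) of the 9 genes, and of *Brd3* at the start that lies 32 kb inside the gene. Points are mice, bars the mean ± SD of 5. The genotypes overlap at every gene with a peak, *Brd3* and *Atad2* stay at 0 at the annotated 5′ end, and the *Brd9* value of 0 belongs to *Tip60* cKO 5.

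The BET gene *Brd2* (ENSMUSG00000024335.20; chr17:34112023-34122634, minus strand) carried the strongest acetylation of the group. The TSS rank scores were 99.95, 99.11, 99.79, 99.27 and 98.73 in *Tip60* cKO 1 to 5 and 99.85, 97.38, 99.58, 98.49 and 99.97 in control 1 to 5. All 10 libraries placed it in the top 3 percent of genes, with a difference of 0.31 ± 1.41 (limma, SE; adjusted p = 0.977). The strongest peak was enriched between 7.80-fold and 12.1-fold over the input background.

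The acetylated domain of *Brd2* was broad and lay mostly inside the gene, with 15.1% of the covered bases of the TSS window upstream of the 5′ end. Merged over the 10 lists it ran from 34119571 to 34123144, over 3574 bp. The summit of the strongest peak of each list lay between 1044 and 2336 bp downstream of the 5′ end. The 4 kb TSS window was covered by peaks for 61.4%, 59.5%, 62.1%, 55.3% and 52.3% in *Tip60* cKO 1 to 5 and 60.6%, 60.5%, 57.5%, 55.2% and 57.8% in control 1 to 5. The group means differed by 0.18 percentage points (58.1% against 58.3%; limma adjusted p = 0.976). No other gene of the 9 reached these values in any library. The domain also covers the start of the antisense transcript *CR974462.3*, 2066 bp into the gene, and ends next to the start of *H2-DMa*, an MHC class II gene on the other strand, 3093 bp into it. Reads of ChIP carry no strand of transcription, so the signal there cannot be divided between these genes.

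The body of *Brd2*, from 2 kb after the TSS to the gene end, was covered by peaks for 14.8%, 15.6%, 15.1%, 11.2% and 11.1% in *Tip60* cKO 1 to 5 and for 20.8%, 20.5%, 19.7%, 12.1% and 18.7% in control 1 to 5. All *Tip60* cKO values lay below 4 of the control values, and control 4 was inside their range. The difference was -4.80 ± 1.80 percentage points (limma, SE; p = 0.0258, adjusted p = 0.250; exact permutation p = 0.0317, n = 5), so it did not pass over all genes. Without control 4 it was -6.37 with an adjusted p of 0.0404, in a fit that called 250 of 12652 genes against 45 of 12823 with all mice. Within lane 7 it was -5.18 and within lane 8 -4.23. The covered stretch is the tail of the 5′ domain plus a separate region at 34118508-34119285, present in 4 lists of each genotype, with its summit in an exon 3781 bp from the 5′ end and 364 bp from a further *Brd2* transcript start.

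*Brd3* (ENSMUSG00000026918.16; chr2:27445579-27507662, minus strand), the other BET gene of the group, had no H4K12ac peak within 2 kb of its annotated 5′ end in any list. That end is defined by a single transcript. The other starts for protein-coding transcripts lie 31.98 kb or more inside the gene, and the cluster of 7 starts between 27475181 and 27475686, which holds the RefSeq start shown above, had peaks in all 10 lists. At this RefSeq start, chosen after the peaks were seen, the rank score was 94.8, 90.6, 84.6, 96.8 and 84.7 in *Tip60* cKO 1 to 5 and 96.5, 91.8, 88.4, 86.6 and 98.5 in control 1 to 5. The genotypes overlapped (difference -2.04; exact permutation p = 0.556, n = 5).

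Coverage of the window around the *Brd3* start was 30.3%, 18.0%, 30.3%, 27.6% and 27.3% in *Tip60* cKO and 26.3%, 37.0%, 39.0%, 28.2% and 36.1% in control mice. 3 of the control values lay above all *Tip60* cKO values, and the difference of -6.64 percentage points had an exact permutation p of 0.103 (n = 5). Of the covered bases, 66.4% lay upstream of the RefSeq start, where 5 of the other 6 starts of the cluster are, and the start itself was inside a peak in all 10 lists. Along the rest of the gene 12 weak regions were found, none in all lists, so 1 of 13 body regions was shared by all mice. The body coverage of 3.45% ± 1.30 in *Tip60* cKO against 3.86% ± 1.25 in control mice (SD, n = 5) includes this start.

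*Brd7* and *Brd9* encode subunits of different SWI/SNF remodelers: BRD7 belongs to PBAF and BRD9 to the non-canonical BAF complex. *Brd7* (ENSMUSG00000031660.13; chr8:88331039-88362194, minus strand) had a single peak at the TSS in every list, within 88361334-88362260, with its summit 101 to 365 bp downstream. The rank scores were 94.0, 97.8, 98.0, 96.2 and 98.7 in *Tip60* cKO 1 to 5 and 87.7, 84.6, 99.6, 95.6 and 88.8 in control 1 to 5. The *Tip60* cKO mice were high and close together, and 3 of the 5 control mice lay below all of them while control 3 lay above. The difference of 5.67 ± 3.00 (limma, SE) was the largest upward one of the group and did not pass (limma p = 0.0909, adjusted p = 0.503; exact permutation p = 0.111). On the log2 scale of fold enrichment relative to the library median it was 0.26 ± 0.15 (adjusted p = 0.391).

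The peak at *Brd7* was narrow and sharply bounded. Coverage of the window was 22.6%, 20.9%, 19.2%, 20.6% and 15.2% in *Tip60* cKO and 21.5%, 22.7%, 20.9%, 21.0% and 21.5% in control mice. *Tip60* cKO 1 lay within the control range and the other 4 *Tip60* cKO mice just below or below it (difference -1.84 ± 2.09, limma adjusted p = 0.617). Only 3.82% of the covered bases were upstream of the TSS. Inside the 31.2 kb gene a peak was found in 1 list only, that of control 5.

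*Brd9* (ENSMUSG00000057649.6; chr13:73937811-73960895, plus strand) had the weakest TSS signal of the genes with a peak. Its 5′ end lies 27 bp from that of *Trip13*, a gene on the opposite strand that encodes an AAA ATPase of meiosis and the spindle checkpoint, and the windows of the pair are nearly the same. The rank scores were 78.5, 75.4, 83.8, 87.9 and 0 in *Tip60* cKO 1 to 5 and 77.1, 76.9, 80.2, 70.2 and 78.8 in control 1 to 5. *Tip60* cKO 5, the library with the fewest tags, had no peak there. The difference was -11.5 ± 15.5 with it (limma adjusted p = 0.804) and 4.74 without it. With this library kept, the sign also reversed with equal numbers of peaks and over all transcript starts (5.18).

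The peaks at the *Brd9* start were short and lay on the side of *Brd9*. Coverage was 16.7%, 4.92%, 12.3%, 11.3% and 0% in *Tip60* cKO and 24.0%, 26.7%, 24.97%, 6.15% and 16.8% in control mice. Of the control mice, 4 lay above all *Tip60* cKO mice, and control 4 lay among them. The difference was -10.7 ± 4.39 percentage points (limma, SE; p = 0.0320, adjusted p = 0.176; exact permutation p = 0.0556, n = 5). It was -13.9 within lane 7, -5.85 within lane 8 and -8.43 without *Tip60* cKO 5. Across the 9 lists with a peak, 1.11% of the covered bases lay upstream of the TSS, on the *Trip13* side.

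The body of *Brd9* carried peaks over much of its length. They covered 19.5%, 16.4%, 26.6%, 15.7% and 7.47% of it in *Tip60* cKO 1 to 5 and 19.3%, 18.8%, 13.0%, 5.90% and 21.4% in control 1 to 5, in 6 to 14 peaks per list. The genotypes overlapped widely (difference 1.49 ± 3.96, limma adjusted p = 0.912), and the lowest value of each genotype belonged to its list with the fewest peaks. Apart from those at the gene end, the peaks merged into 21 body regions, of which 1, at 73949067-73951035 in the middle of the gene, occurred in all 10 lists, and 10 occurred in more *Tip60* cKO than control lists against 8 the other way. None exceeded 5.07-fold enrichment. A region across the gene end, 73960500-73962345, was also present in all 10 lists, with up to 5.86-fold enrichment.

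*Atad2* and *Atad2b* encode closely related AAA ATPases with a bromodomain, and the pair differed in these lists. *Atad2* (ENSMUSG00000022360.8; chr15:58094044-58135082, minus strand), which is best known from proliferating cells, had no peak in any of the 10 lists, at its TSS, at any of its 8 transcript starts or along its 41.0 kb. The same held for 4341 of 18694 protein-coding genes longer than 4 kb (23.2%). Acetylation there was below the calling threshold at the depth of every library, and its absence cannot be read from this. No test of the genotypes was possible at *Atad2*.

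*Atad2b* (ENSMUSG00000052812.5; chr12:4917353-5047394, plus strand) ranked among the most strongly acetylated starts. The rank scores were 99.6, 98.6, 97.6, 97.4 and 94.6 in *Tip60* cKO 1 to 5 and 94.0, 99.1, 99.0, 96.8 and 98.2 in control 1 to 5, with no difference beyond the spread (0.13 ± 1.78, limma, SE; adjusted p = 1.0). The height of the strongest peak relative to the library median was likewise close, at 0.54 ± 0.18 and 0.53 ± 0.17 on the log2 scale (SD, n = 5).

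The width of the *Atad2b* domain was lower in every *Tip60* cKO mouse than in every control mouse. Coverage was 24.9%, 24.5%, 26.7%, 24.4% and 12.0% in *Tip60* cKO 1 to 5 and 28.1%, 29.1%, 27.7%, 27.6% and 39.5% in control 1 to 5. Of the 7 genes tested, *Atad2b* alone did not overlap between genotypes in coverage, where 5.23% of all genes were lower in *Tip60* cKO in this way (5.38% in either direction). The difference was -7.88 ± 3.44 percentage points (limma, SE; p = 0.0414, adjusted p = 0.196), and the exact permutation p of 0.00794 (n = 5) is the smallest that 5 against 5 mice can give. It was -5.26 without *Tip60* cKO 5, -2.91 within lane 7 and -15.3 within lane 8, and the lane 8 value rests on *Tip60* cKO 5 (12.0%) and control 5 (39.5%), both far from the rest of their groups.

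Split by side, the same *Atad2b* peaks separated the genotypes on the side of the gene. The share of all genes separated in this way was not determined, so the split adds no independent support. Downstream of the TSS, 748, 666, 735, 686 and 481 bp of the window were in peaks in *Tip60* cKO 1 to 5, against 856, 788, 904, 836 and 983 bp in control 1 to 5. Upstream the values overlapped, from 0 to 334 bp in *Tip60* cKO and from 206 to 598 bp in control mice. In 8 of 10 lists the TSS base itself lay in a gap between an upstream and a downstream peak or outside them. The body of this 130 kb gene was nearly free of peaks, with 0.26% ± 0.37 and 0.67% ± 0.62 covered (SD, n = 5).

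*Bptf*, *Cecr2* and *Baz2b* encode large subunits that partner ISWI remodelers: BPTF in NURF, CECR2 in CERF, and BAZ2B as a relative of the NoRC subunit BAZ2A. At *Bptf* (ENSMUSG00000040481.17; chr11:107033081-107132127, minus strand) the rank scores were 96.8, 80.6, 98.6, 92.6 and 98.2 in *Tip60* cKO 1 to 5 and 98.5, 95.8, 99.6, 98.1 and 92.9 in control 1 to 5. Except for *Tip60* cKO 2 all values were above 92, and the difference of -3.62 ± 3.59 (limma, SE) did not pass (adjusted p = 0.707). It was -0.42 without *Tip60* cKO 2, -5.97 within lane 7 and -0.09 within lane 8. Coverage was 31.3%, 23.8%, 23.1%, 24.4% and 24.3% in *Tip60* cKO and 29.7%, 32.04%, 25.3%, 23.2% and 29.4% in control mice (adjusted p = 0.575). The groups overlapped, and *Tip60* cKO 1 stood above the other *Tip60* cKO mice.

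Inside *Bptf* an additional region at 107046739-107047467, whose summit lies 85.1 kb from the 5′ end and 278 bp from an annotated internal start, had peaks in 5 *Tip60* cKO and 4 control lists. Its strongest peak was enriched 5.37-fold. The other 31 body regions were found in 4 lists or fewer, 21 of them in a single list.

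*Cecr2* (ENSMUSG00000071226.11; chr6:120666369-120771190, plus strand) showed a wide domain broken into 1 to 3 peaks on both sides of the TSS, between 120665257 and 120667490. The rank scores were 76.3, 78.7, 94.2, 84.1 and 84.7 in *Tip60* cKO 1 to 5 and 83.4, 87.2, 90.4, 94.7 and 81.2 in control 1 to 5, with a difference of -3.76 ± 3.91 (limma, SE; adjusted p = 0.723). Coverage was 36.9%, 18.0%, 34.5%, 30.2% and 20.05% in *Tip60* cKO and 39.4%, 42.1%, 36.8%, 43.5% and 28.6% in control mice. Of the control mice, 3 lay above all *Tip60* cKO mice, and control 5 was low. The difference of -10.1 ± 4.25 percentage points (p = 0.0354, adjusted p = 0.183; exact permutation p = 0.0714, n = 5) was -9.61 within lane 7 and -10.9 within lane 8. Of the covered bases 39.2% lay upstream of the TSS, where no other gene starts. Beyond the TSS window the 105 kb gene held 1 peak, in a single list, that of control 3.

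*Baz2b* (ENSMUSG00000026987.16; chr2:59899363-60209839, minus strand), the longest of the 9, was marked at a pair of starts 84.1 kb apart. Its annotated 5′ end lies 48 bp from that of *March7*, a gene for a ubiquitin ligase on the other strand. Peaks flanked this shared start in all 10 lists, at 60209291-60209822 on the side of *Baz2b* and 60209879-60210532 on the side of *March7*, and the TSS base was inside a peak in no list. The rank scores were 87.6, 83.4, 83.1, 80.9 and 96.8 in *Tip60* cKO 1 to 5 and 92.2, 94.2, 90.8, 83.1 and 84.7 in control 1 to 5 (difference -2.63 ± 3.57, limma, SE; adjusted p = 0.804). Coverage was 21.5% ± 3.40 and 25.03% ± 3.03 (SD, n = 5; limma adjusted p = 0.413), and 60.7% of the covered bases lay on the *March7* side. All *Baz2b* transcripts annotated to start at the 5′ end are of the processed type, not protein-coding. The first protein-coding start lies 84.1 kb inside the gene, so the TSS values here belong to no protein-coding start of *Baz2b*.

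The RefSeq start of *Baz2b* inside the gene, in the promoter shown above and close to a protein-coding start, had a peak within its window in all 10 lists too, at 60124493-60125713. This start was also chosen after the peaks were seen. The rank scores there were 88.8, 95.9, 76.1, 96.2 and 77.1 in *Tip60* cKO 1 to 5 and 87.0, 81.7, 86.1, 97.0 and 75.5 in control 1 to 5. The spread within each genotype was wide and the means were close (86.8 against 85.5; exact permutation p = 0.802, n = 5). All peak coverage lay downstream of the start, with summits 325 to 979 bp into the gene, across the start of the antisense lincRNA *Gm13620*. In the CpG-poor 300 bases of the printed promoter a peak was present in 2 of 10 lists, against 8 to 10 lists for the other printed promoters. Further inside *Baz2b*, regions shared by most mice were found at 60042532-60043117 (4 *Tip60* cKO and 5 control lists), 59992156-59992786 (4 of each) and 60037074-60037612 (2 and 4 lists, at the start of the lincRNA *Gm13572*), none of them within 2 kb of a *Baz2b* start.

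**Figure D2:**
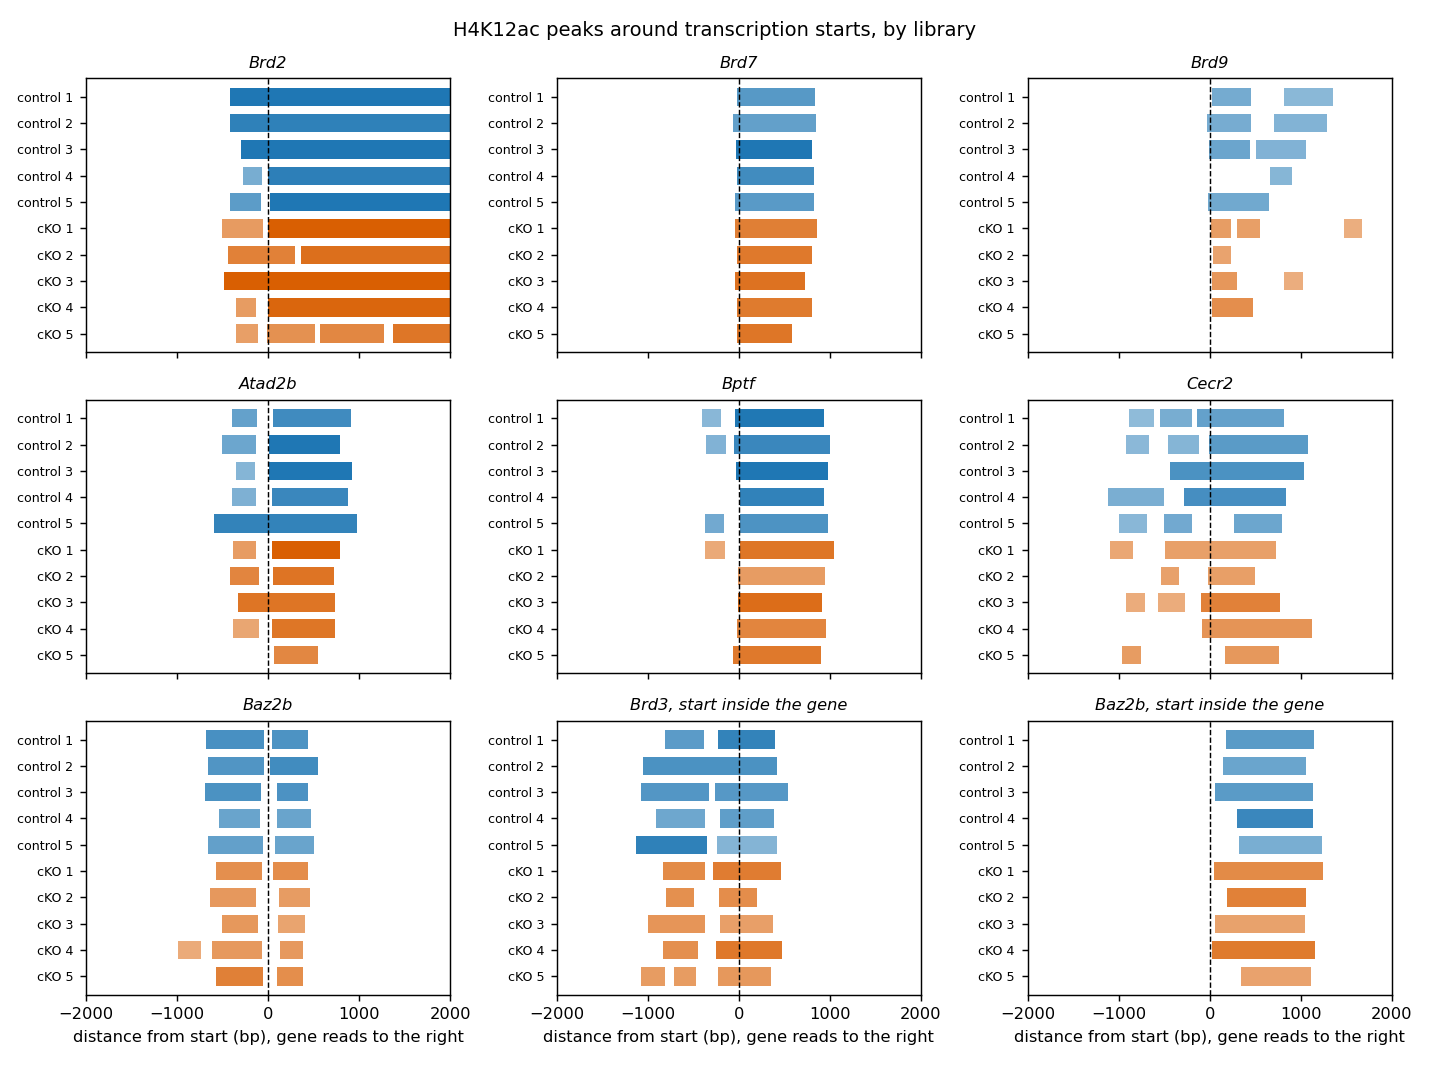
H4K12ac peaks (bars, darker for higher fold enrichment) by library within 2 kb of a start, with the distance from the start in bp on the x axis and the gene reading to the right; blue, control; orange, *Tip60* cKO. At most gene 5′ ends the signal lies downstream of the start, *Atad2b* peaks extend less far downstream in *Tip60* cKO mice, and both panels of *Baz2b* leave the start itself without a peak in all 10 libraries.

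The position of the strongest peak was shared by most of the genes and played no part in choosing them. At *Brd2*, *Brd7*, *Brd9*, *Atad2b* and *Bptf* the summit of the strongest peak lay downstream of the 5′ end in every list with a peak, and at *Cecr2* in 9 of 10. The median distance was 204 bp at *Brd7*, 157 bp at *Brd9*, 216 bp at *Atad2b*, 420 bp at *Bptf* and 283 bp at *Cecr2*, and 1667 bp at the broad domain of *Brd2*. *Baz2b* differed, with the summit downstream in 4 lists and on the *March7* side in 6. *Kat5*, which is not one of the 9, also had it downstream in all 10 lists (median 296.5 bp). The share of all genes with this position was not determined, so it is not shown to be particular to the 9.

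**Figure D3:**
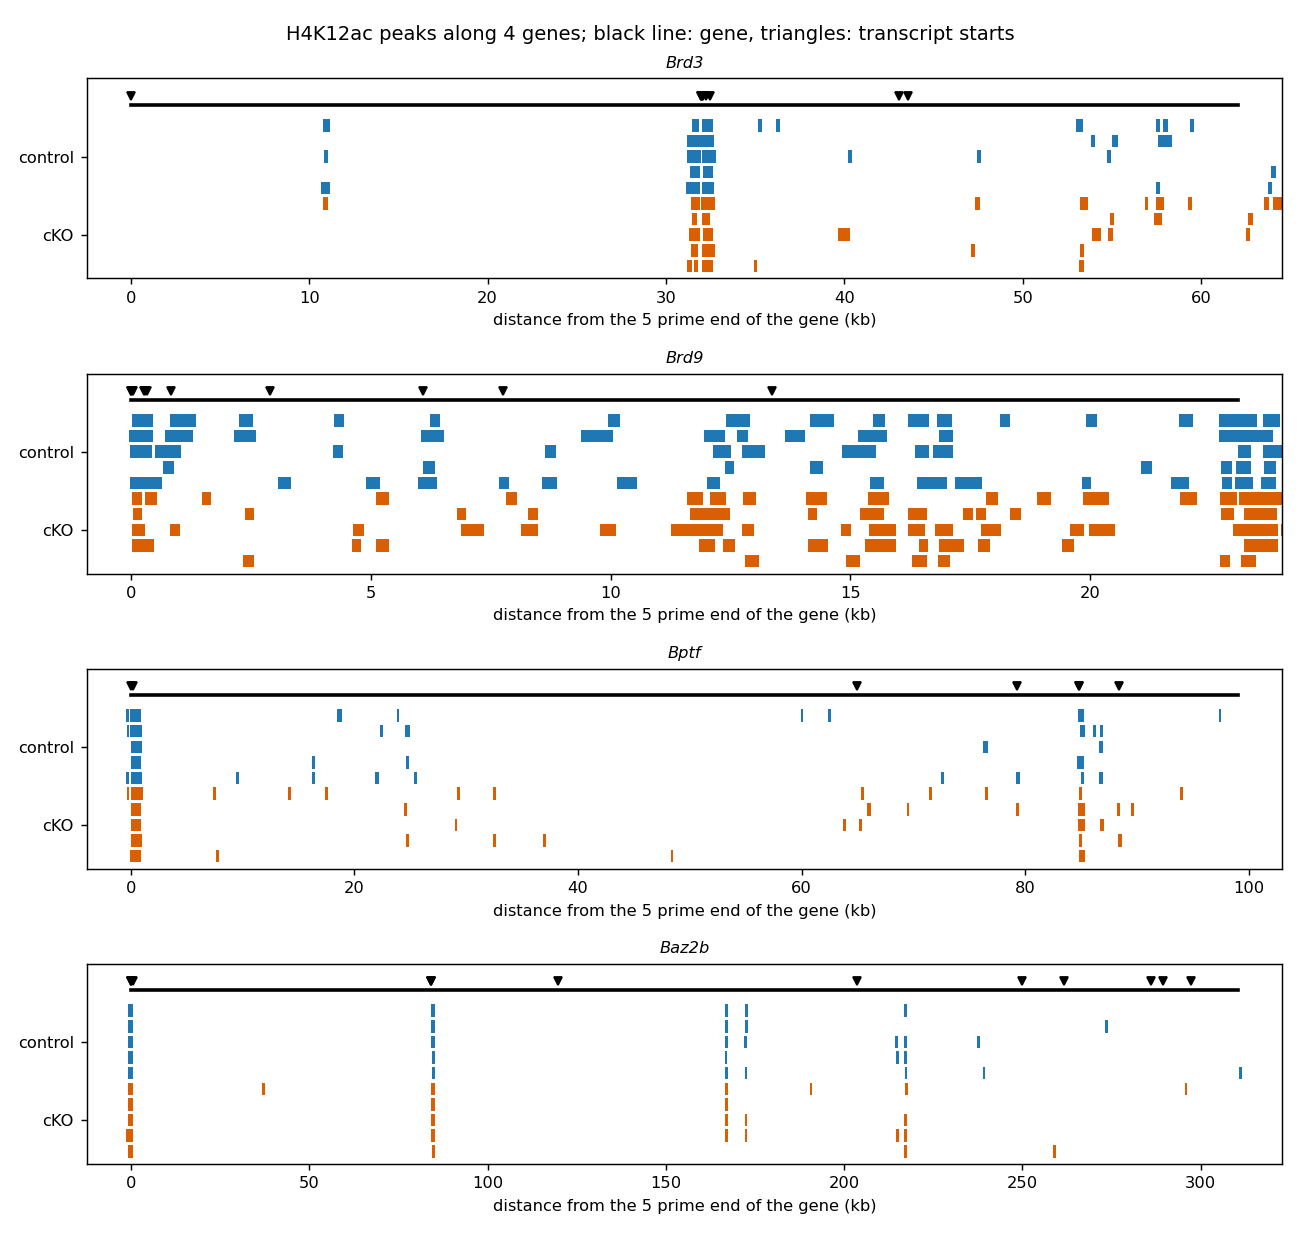
H4K12ac peaks along *Brd3*, *Brd9*, *Bptf* and *Baz2b*, by library (1 row each; blue, control; orange, *Tip60* cKO), with the distance from the 5′ end of the gene in kb on the x axis; very narrow peaks are widened to stay visible. *Brd3* has no peak at its 5′ end and a block in all 10 libraries 32 kb inside, *Baz2b* has blocks at 0 and 84 kb, and *Brd9* has peaks scattered over its length.

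Coverage of the TSS window, the share of its 4 kb that lies in peaks, was lower in *Tip60* cKO on average at all 7 genes tested, as at 81.1% of the 21672 genes tested. No gene of the 9 passed limma with Benjamini-Hochberg adjustment, where 1.56% of all genes passed. At an unadjusted p below 0.05, *Brd9*, *Atad2b* and *Cecr2* were lower, 3 of 7 genes against 22.3% of all genes (23.2% in either direction). The median difference over the 7 was -3.51 percentage points against -4.01 over all genes tested.

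Coverage moved with the length of the peak lists. Averaged over the 9 genes it was 24.0%, 19.2%, 21.7%, 21.4% and 15.99% in *Tip60* cKO 1 to 5 and 25.5%, 26.9%, 24.1%, 21.9% and 24.4% in control 1 to 5, and its correlation with the number of peaks in the list was r = 0.85 over the 10 libraries, both values coming from the same lists. By gene, r ranged from 0.41 at *Cecr2* and 0.49 at *Baz2b* to 0.86 at *Brd7*. It was 0.78 at *Atad2b* and 0.76 at *Brd9*. Mean peak length over the genome averaged 409 ± 45.2 bp over the *Tip60* cKO lists against 464 ± 28.04 bp over the control lists (SD, n = 5; p = 0.0556 by an exact permutation test). Of the cell type markers, 2 passed in coverage: the astrocyte gene *Gfap* fell from 19.6% in control to 4.60% in *Tip60* cKO mice (limma adjusted p = 0.0287), and the neuronal gene *Syt1* fell from 51.4% to 29.2% (limma adjusted p = 0.0315). Summed over the 5 astrocyte markers, of which 3 were at 0 in all lists, coverage ranged from 0 to 10.75 percentage points in *Tip60* cKO and from 12.87 to 27.99 in control mice. The sum over the 5 microglia markers, 4 of them at 0 throughout, ranged from 0 to 1.60 and from 0 to 8.95, and that over the 5 endothelial markers, 1 of them at 0, from 4.70 to 35.5 and from 0 to 18.4. The 5 oligodendrocyte markers were at 0 in every list, and the sum over the 8 neuronal markers ranged from 155.7 to 327.6 in *Tip60* cKO and from 271.6 to 406.6 in control mice. The part of list length, depth and cell types in the lower coverage of the 9 genes was not tested. With the 64245 strongest peaks of every list, the differences at *Brd9*, *Atad2b* and *Cecr2* were -8.85, -6.85 and -8.49 percentage points (limma adjusted p = 0.291, 0.285 and 0.294).

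**Figure D4:**
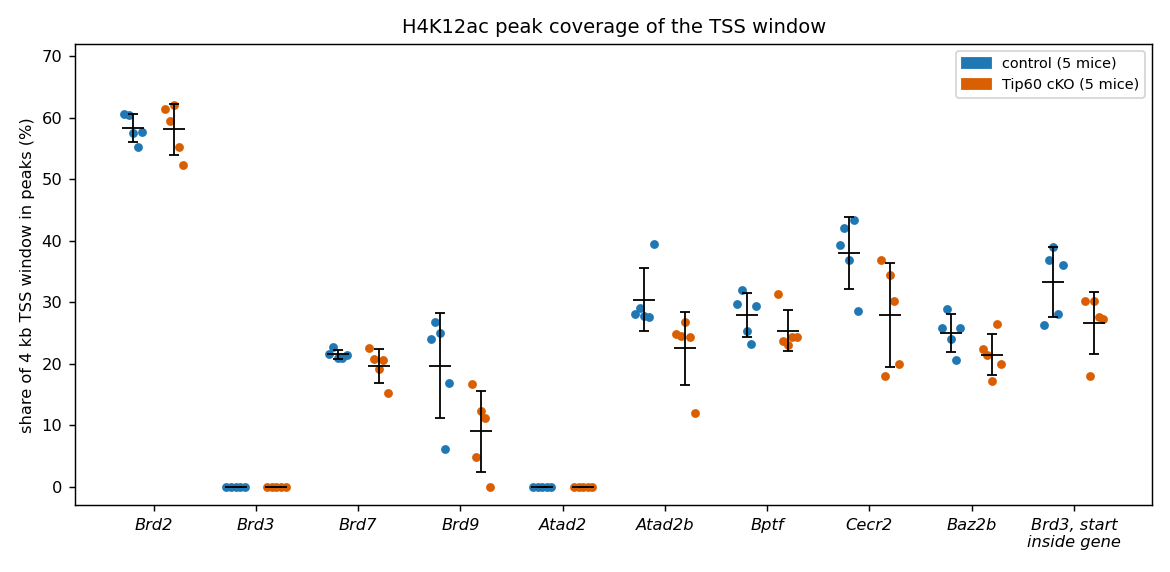
Share of the 4 kb TSS window in H4K12ac peaks (y axis, %) at the 9 genes and at the *Brd3* start 32 kb inside the gene; points are mice, bars the mean ± SD of 5. At *Atad2b* the highest *Tip60* cKO value (26.7%) lies below the lowest control value (27.6%), and at the other genes with peaks the genotypes overlap.

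The strength of the strongest TSS peak, as log2 fold enrichment relative to the library median, could be tested at 6 genes, since *Brd9* lacked a peak in *Tip60* cKO 5. None passed limma (3.57% of all 13004 genes tested passed), and none had an unadjusted p below 0.05 (17.9% of all genes) or genotypes that did not overlap (4.35%). Of the 6 differences 3 were below 0, as at 45.6% of all genes. Differences ran from -0.20 ± 0.16 at *Bptf* (-0.06 without *Tip60* cKO 2) to 0.26 ± 0.15 at *Brd7* (limma, SE), with a median of -0.04 against 0.02 over all genes. Without single mice, the difference at *Brd7* ran from 0.17 to 0.41. By fold enrichment without this scaling, the *Tip60* cKO mean was lower at 6 of the 7 genes with a TSS peak (*Brd9* with its missing peak as 0), as at 72.5% of all genes with a peak in at least 2 lists, for example 6.95 ± 1.60 against 8.97 ± 1.67 at *Bptf* (SD, n = 5; exact permutation p = 0.0873). The input was pooled per genotype. In fold enrichment and in the rank score taken from it, a difference between inputs cannot be told apart from one between genotypes. Relative to the genome, local input background at the strongest TSS peak averaged 1.0 in *Tip60* cKO and 1.151 in control mice at *Brd2*. It was 1.154 and 1.255 at *Brd9* and 1.0 in both at *Bptf*. By pileup scaled to the library median, 17 of 13004 genes passed limma.

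Gene body coverage was tested at the 6 genes with a body peak in at least 2 lists. None passed limma (0.351% of 12823 genes did), *Brd2* alone had an unadjusted p below 0.05 (15.7% of all genes, 14.9% in the same direction), and 4 of 6 differences were below 0 (74.2% of all genes). At none did the genotypes not overlap (4.01% of all genes). The median was -0.24 percentage points against -0.53 over all genes. *Brd7* and *Cecr2* each had a body peak in 1 list and *Atad2* in none.

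**Figure D5:**
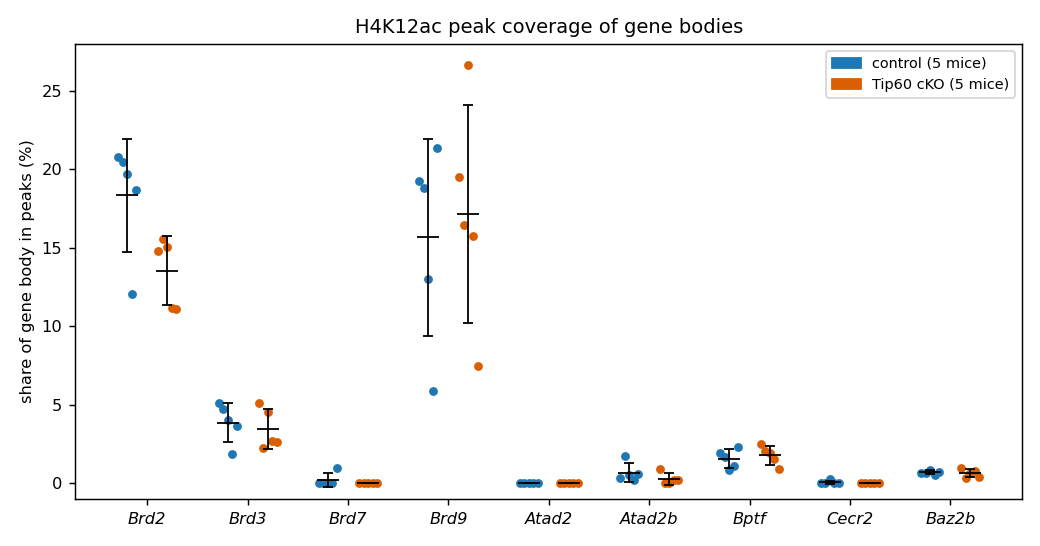
Share of the gene body in H4K12ac peaks (y axis, %), from 2 kb after the TSS to the gene end; points are mice, bars the mean ± SD of 5. *Brd2* and *Brd9* stand above the other genes, and control 4 (12.1%) is the single control mouse within the *Tip60* cKO range at *Brd2*.

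The 29 other bromodomain genes examined include the acetyltransferases *Crebbp*, *Ep300*, *Kat2a* and *Kat2b*, and subunits of BAF, PBAF and TFIID. A TSS peak in all lists was found at 19 of them (65.5%, against 66.7% of the 9). None of the 22 tested passed limma in rank score or in coverage. *Brpf1*, which encodes a scaffold of MOZ and HBO1 acetyltransferase complexes, had rank scores that did not overlap, lower in *Tip60* cKO, at 74.8 ± 2.82 against 85.0 ± 1.81 (SD, n = 5; limma adjusted p = 0.0989). In the same direction, 1.62% of all genes did not overlap.

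The other bromodomain genes whose TSS coverage most resembled the mean of the 9 over the 10 libraries were *Trim33* (Pearson r = 0.89), *Ash1l* (r = 0.88) and *Kmt2a* (r = 0.87). Since these libraries differ in list length, the correlations describe the libraries as well as the genes. At *Trim33*, coverage averaged 33.1% ± 3.20 in *Tip60* cKO against 43.7% ± 4.97 in control mice (SD, n = 5) and did not overlap (limma adjusted p = 0.0716). At *Ash1l* and *Kmt2a* the genotypes overlapped. Of the 22 other bromodomain genes tested, 3 had coverage that did not overlap, each lower in *Tip60* cKO, against 5.23% of all genes in this direction.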

How the data were processed

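The authors aligned reads to mm10 with STAR, removed duplicates and called peaks in each mouse with MACS 2.1.0.20140616 (q below 0.1) against an input pooled per genotype. The deposited peak lists give coverage as pileup at the summit, fold enrichment over the input background (a ratio) and −log10 p- and q-values. They hold no counts per region, so the differential binding test of the study was not repeated and no counting intervals are given. Inputs were not analysed here.

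For each of 55413 genes (GENCODE M21, GRCm38), the strongest fold enrichment within 2 kb of the TSS was ranked within its library (TSS rank score), and the share of that window and of the gene body (genes over 4 kb) in peaks was taken. Genotypes were compared by limma 3.58.1 (R 4.3.3) over all genes with a peak in at least 2 lists (in all 10 for log2 fold enrichment, scaled to the library median), with Benjamini-Hochberg adjustment, and for single values by exact permutation of the 10 genotype labels, two-sided (Python 3.11.15, scipy 1.17.1). The limma step was tested on simulated data. All 9 genes are named, together with other bromodomain genes whose genotypes did not overlap in rank score. A result that falls under this rule is not reported here. Members, lists and tests were chosen with earlier results of these data known. Alternatives were a q below 0.01, 1 kb windows, all transcript starts, equal numbers of peaks, strength by pileup, a peak in at least 5 lists, a robust prior, lane, a replicate block, leaving out each mouse and, added after the peaks were seen, the RefSeq start.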

Additional observations from a re-analysis of the deposited data

Results flagged for a closer look

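Of 70 groups of 5 mice checked, 11 held a mouse whose gap to the nearest of the others was large against the range of the group. Chance flags about 1 in 20 groups when groups are independent, whereas these share libraries.

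*Tip60* cKO 5, the library with the fewest tags, stood apart at 3 of them. Its TSS rank score was 0.0 at *Brd9* (75.4 to 87.9 in the other *Tip60* cKO mice) and 85.984 at *Kat5* (95.1 to 98.6), and its TSS coverage was 12.022% at *Atad2b* (24.4% to 26.7%). In the opposite direction, TSS coverage was 39.54% in control 5 at *Atad2b* (27.6% to 29.1% in the other control mice) and 31.342% in *Tip60* cKO 1 at *Bptf* (23.1% to 24.4%). At the *Brd3* start inside the gene, *Tip60* cKO 2 had a coverage of 17.971% (27.3% to 30.3%).

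Gene body coverage of *Brd2* was 12.066% in control 4 against 18.7% to 20.8% in the other control mice. *Atad2b* body coverage was 0.89424% in *Tip60* cKO 1 (0 to 0.222% in the others) and 1.7463% in control 2 (0.175% to 0.589%). The body peak of *Brd7* in control 5 covered 0.99468% and that of *Cecr2* in control 3 covered 0.26356%, with 0 in the other control mice.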

How the results depend on the processing

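No gene of the 9 passed the threshold under any alternative in TSS rank score, coverage or fold enrichment. In gene body coverage the number ranged from 0 to 1 when single mice were left out. *Brd2* passed without control 4 (-6.37 percentage points, limma adjusted p = 0.0404), in a fit that called 250 of 12652 genes against 45 of 12823 with all mice. Its difference ran from -6.37 to -4.19 without single mice. Of 518 alternative values, 470 kept their direction and 48 did not, 21 of these by leaving out a mouse. They include the largest rank score difference, that of *Brd9*, and the causes were not tested.

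In rank score, *Brd2* was -0.180 by pileup, -0.475 in 1 kb windows and -0.234 within lane 8. *Brd9* was 2.49 with equal numbers of peaks, 5.18 over all starts and 1.12 within lane 7, *Atad2b* -1.49 within lane 8, and *Baz2b* 0.406 over all starts, 4.94 within lane 8 and 1.34 at the RefSeq start. In coverage, *Brd2* was 0.670 in 1 kb windows and 1.47 within lane 7, *Bptf* 0.0493 over all starts, and *Baz2b* 0.0125 within lane 8 and 1.22 at the RefSeq start. In log2 fold enrichment, *Brd2* was -0.0907 by pileup, -0.0431 in 1 kb windows and -0.154 within lane 8. *Atad2b* was -0.00202 at q below 0.01, -0.00674 with equal numbers of peaks, -0.00141 over all starts and -0.109 within lane 8. *Baz2b* was 0.0118 over all starts, 0.230 within lane 8 and 0.0874 at the RefSeq start. In body coverage within lane 8, *Brd9* was -2.03 and *Bptf* -0.467.

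Without single mice, rank score differences ran from -0.105 to 0.544 at *Brd2*, -17.2 to 4.74 at *Brd9* and -0.727 to 0.870 at *Atad2b*. Without a reversal, they ran from -6.41 to -1.92 at *Cecr2* and from -5.24 to -1.27 at *Baz2b*, and the coverage difference of *Brd7* from -2.56 to -0.727. Coverage of *Brd2* ran from -1.17 to 1.27, log2 fold enrichment from -0.0466 to 0.0860 at *Brd2* and -0.0609 to 0.0463 at *Atad2b*, and body coverage from -0.958 to 3.91 at *Brd9* and -0.146 to 0.00741 at *Baz2b*.

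The replicate numbers did not pair the mice: deviations of same-numbered mice correlated between -0.151 and 0.135 in coverage and between -0.24 and 0.249 in body coverage, above 0.1 in 2 of 5 pairs each, and in no pair in rank score or fold enrichment. With a replicate block 0 of the 9 genes passed in each measure (*Atad2b* coverage -7.88, adjusted p = 0.334), and over all genes 0 instead of 339 passed in coverage, 0 instead of 45 in body coverage, 35 instead of 51 in rank score and 518 instead of 464 in fold enrichment. In coverage, 653 genes passed with lane as a term, 734 with equal numbers of peaks and 40 to 1416 without single mice. In body coverage, 112 passed with equal numbers of peaks and 0 to 250 without single mice, in rank score 57 to 101 without single mice, and 17 by pileup in fold enrichment. Within lane 7 and lane 8 alone, 232 and 930 genes passed in rank score and 3 and 0 in coverage. The counts were 0 and 0 in body coverage and 150 and 28 in fold enrichment. A missing peak, as at *Atad2* or at the *Brd9* start in *Tip60* cKO 5, lay below the calling threshold and is not a measured absence, and the part of depth in it was not tested.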
